A study of Mus musculus with 27 samples.

Results

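The 39 genes of the mouse Hox clusters were followed through 27 RNA sequencing libraries of haematopoietic stem and progenitor cells (HSPCs). They were taken by symbol, Hoxa, Hoxb, Hoxc or Hoxd with a number, from 24418 entries, which gave 11 Hoxa, 10 Hoxb, 9 Hoxc and 9 Hoxd genes. A further 5 entries with Hox-like names were antisense or other noncoding transcripts and were kept apart. HSPCs are the purified blood-forming cells at the top of the haematopoietic hierarchy, and all libraries came from C57BL/6 mice. There were 9 groups of 3 libraries, named here as in the labels. Of the embryonic groups, named by embryonic day, 1 pair shared a day (E12.5 PL with E12.5 FL) and the other group was E16.5 FL. The marrow groups were Perinatal BM and, by weeks of age, 1w, 3w, 4w, 6w and 8w BM. FL usually stands for fetal liver and BM for bone marrow, and the labels leave PL unexplained. No source used here gives the surface markers of the sort, the sex, any pooling of animals or the perinatal day. Nothing in the labels says that the 3 libraries of a group came from separate animals, so a p-value reflects the spread among libraries, which may be technical. All 10 HSPC markers were above 0 in every library, with sums of 366 to 400 FPKM in E12.5 PL and 792 to 1077 in the FL and BM groups. Procr alone had a mean of 148 in E12.5 PL. That group also carried strong markers of other tissues: trophoblast, mesenchyme and endothelial lists summed to 2686 to 3101, 784 to 2423 and 934 to 1218 FPKM.

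Hox genes encode homeodomain transcription factors. The 4 clusters arose by duplication, so that genes with the same number (a paralogue group) are more alike between clusters than neighbours within one, and low-numbered genes lie at the 3' end of a cluster and high-numbered genes at its 5' end. In the embryo the 3' genes are used in anterior and the 5' genes in posterior structures. In blood-forming cells, Hoxa9 and Hoxb4 are known for supporting self-renewal, and HOX proteins bind DNA with partners of the TALE family, MEIS and PBX. On the GRCm38 build with the GENCODE M21 annotation, Hoxa2 to Hoxa13 span 52162417 to 52260880 of chromosome 6 (minus strand), and the members of the other clusters span 96194316 to 96368256 of chromosome 11 (Hoxb, plus strand), 102921103 to 103036852 of chromosome 15 (Hoxc, plus strand) and 74668310 to 74765142 of chromosome 2 (Hoxd, plus strand).

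In all 8 FL and BM groups, most Hox expression came from the Hoxa cluster. FPKM (fragments scaled to transcript length and library size) are per length, so the levels of different genes can be summed and compared. Such comparisons rest on the gene lengths used, which no source here gives. Exons of some members also share bases with other transcripts, and reads there may not be told apart. The 11 Hoxa genes summed to 73.8 ± 1.82 FPKM in E12.5 FL (SD, n = 3, as for all levels, shares and ratios below, while the errors of log2 differences are SE), to 113 ± 6.23 in E16.5 FL and to 71 ± 2.56 in 8w BM. That was 93% of the summed Hox FPKM in E12.5 FL, 93.6% in E16.5 FL and 87.5% in 8w BM. Hoxb genes made up 6.85% in E12.5 FL and 12.2% in 8w BM. The 18 Hoxc and Hoxd genes together were at or near 0 in FL and BM: 58 of 432 values (13.4%) were above 0, and the highest was 0.213 FPKM, for Hoxc4 in a single 8w BM library. Hoxc8, Hoxc12, Hoxd10 and Hoxd11 were listed at 0 in all 24 FL and BM libraries. Each FL or BM group thus drew its Hox output from a run of neighbouring genes, and the 5 genes from Hoxa5 to Hoxa10 alone held 85.5% ± 1.52 of it in E12.5 FL and 76.8% ± 2.91 in 8w BM.

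**Figure D1:**
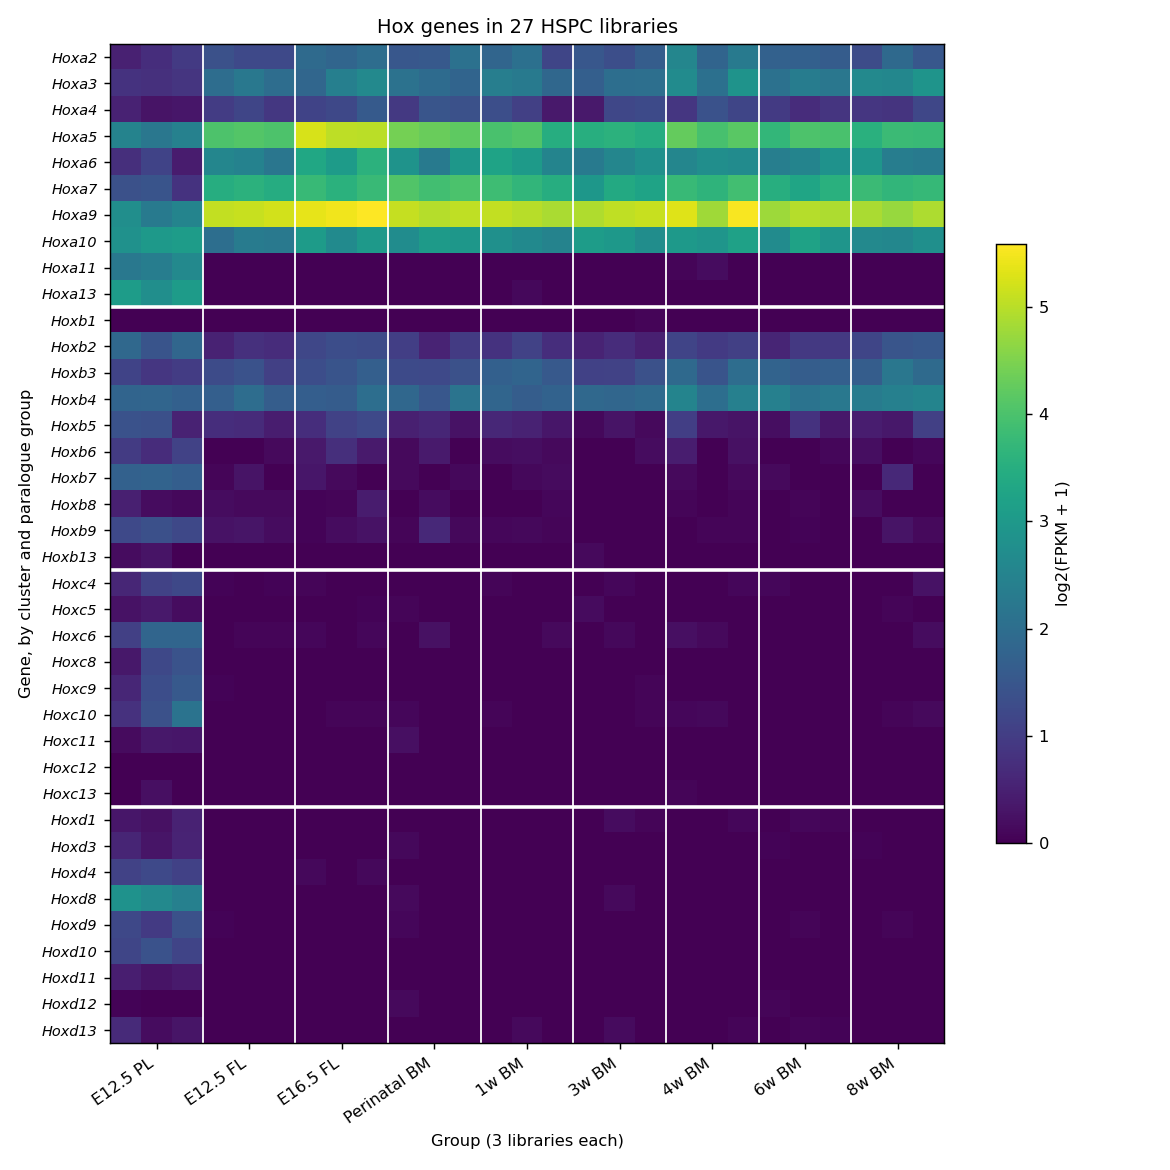
Level of Hox genes (rows, by cluster and paralogue group) in each of the 27 libraries (columns, 3 per group), as log2(FPKM + 1) on the colour scale. In FL and BM the signal lies in Hoxa2 to Hoxa10 and Hoxb2 to Hoxb5, while E12.5 PL also shows Hoxa11, Hoxa13 and members of Hoxb, Hoxc and Hoxd.

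E12.5 PL had a different composition. There, Hoxa genes held 51.5% ± 2.01 of the Hox FPKM, Hoxb 19.2% ± 2.48, Hoxd 16.8% ± 2.12 and Hoxc 5.7 to 17.1%, depending on the library, while the summed level, 62.4 ± 3.16, was below the 79.3 ± 2.56 of E12.5 FL. The 5 genes from Hoxa5 to Hoxa10 held 29% ± 2.02. A mean of at least 1 FPKM was reached by 21 of 39 members in E12.5 PL and by 10 in E12.5 FL. These shares are descriptions over the members and were not tested.

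**Figure D2:**
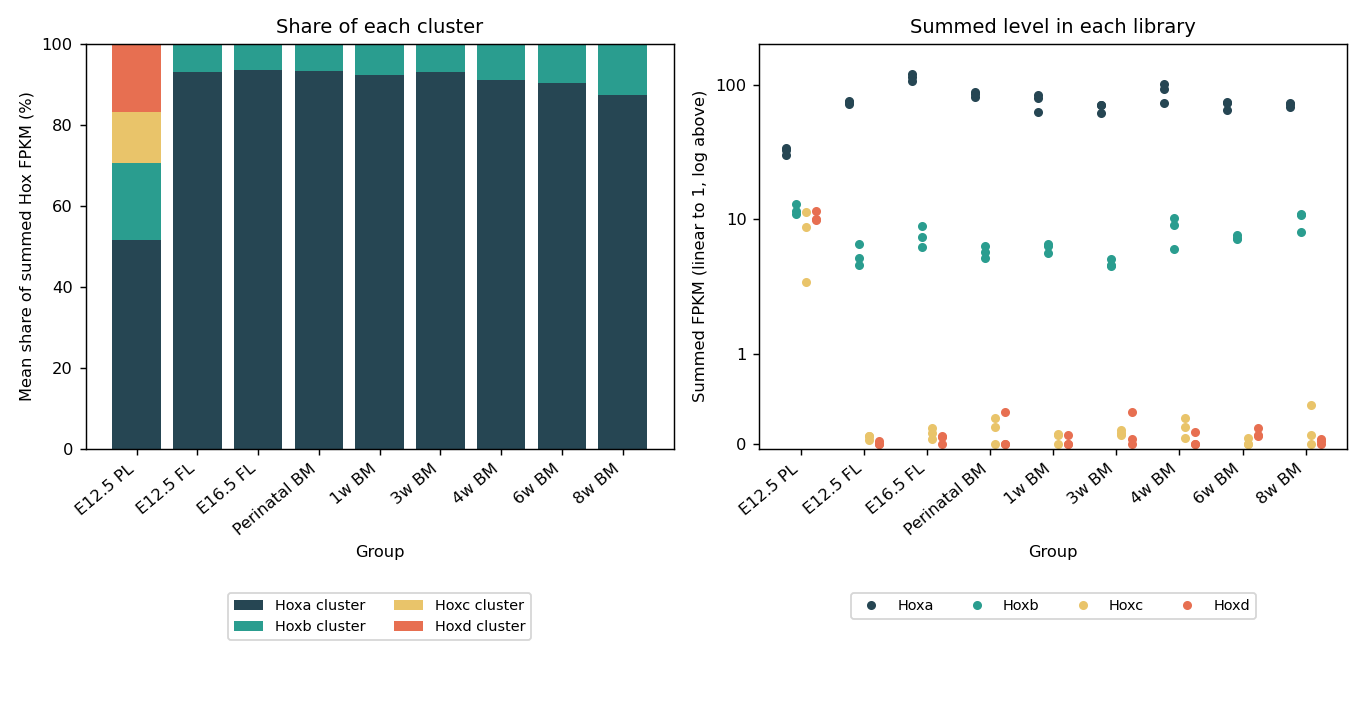
Mean share of each cluster in the summed Hox FPKM of a group (left, stacked to 100%) and the summed FPKM of each cluster in every library (right, points, axis linear up to 1 and logarithmic above). Hoxc and Hoxd points lie between 3.46 and 11.6 in E12.5 PL and at no more than 0.439 in every other group.

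Within the Hoxa cluster the levels did not follow gene order. Hoxa9 led every FL and BM group. In E12.5 FL it stood at 32.5, 33.5 and 35.9 FPKM, Hoxa5 at 15.3, 16.1 and 15.3, and Hoxa7 at 10.2, 11 and 9.92, and these ranges did not overlap. Hoxa6, which lies between Hoxa5 and Hoxa7, stood lower at 4.88, 4.57 and 3.58, so that the profile had a peak at Hoxa5 and another at Hoxa9. Hoxa6 and Hoxa10 (3.07, 4.02 and 3.79) overlapped, as did Hoxa10 and Hoxa3 (2.96, 3.74 and 2.98). On the 5' side expression ended after Hoxa10: Hoxa11 was above 0 in 2 and Hoxa13 in 1 of 24 FL and BM libraries, at no more than 0.134 FPKM.

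**Figure D3:**
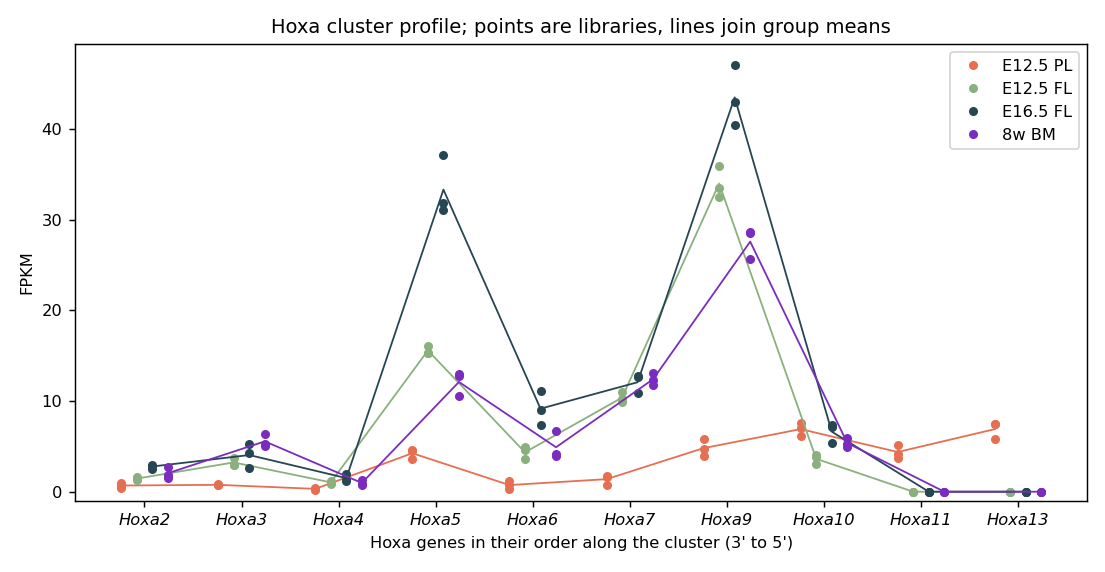
FPKM of Hoxa2 to Hoxa13 in their order along the cluster for E12.5 PL, 8w BM and both FL groups (points are libraries, lines join group means). The FL and BM profiles peak at Hoxa5 and Hoxa9 and end after Hoxa10, and the E12.5 PL profile stays at or below a mean of 6.9 and continues to Hoxa13, at 6.89 FPKM.

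In FL and BM the Hoxb cluster used its 3' part, Hoxb2 to Hoxb4. Hoxb4 had group means of 2.35 to 4.4 FPKM in FL and BM, Hoxb3 of 1.29 to 2.87 and Hoxb2 of 0.505 to 1.64. Hoxb5, a gene reported to mark long-term stem cells, had group means of 0.141 to 1.06 in FL and BM. In the same groups Hoxb6 to Hoxb9 stayed at or below a mean of 0.445. Hoxb1, at the 3' end, was above 0 in 1 of all 27 libraries. The only FL or BM group in which Hoxb5 had a mean of at least 1 was E16.5 FL.

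Within a paralogue group, the Hoxa gene was usually the higher one. In groups 3, 5, 6, 7 and 9, every Hoxa library lay above every Hoxb library of the same group in 8 of 8 FL and BM groups. In group 2 this held in 7 of 8, and Hoxa2 (2.03 ± 0.673) and Hoxb2 (1.64 ± 0.346) overlapped in 8w BM. Paralogue group 4 was the reverse in 8 of 8 groups. Hoxb4, for instance, stood at 4, 4.42 and 4.77 FPKM in 8w BM and Hoxa4 at a mean of 0.964, and in E12.5 FL the values were 2.23, 2.98 and 2.14 against a mean of 1.03. In E12.5 PL, Hoxb4 (2.41 ± 0.13) and Hoxb2 (2.33 ± 0.529) each lay above their Hoxa paralogues, at 0.313 and 0.682. Hoxb3 (1.01 against 0.761) and Hoxb7 (2.3 against 1.38) did so too, group 6 overlapped, and in groups 5, 9 and 13 the Hoxa gene lay above.

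By position, paralogue groups 9 to 13 (16 genes) gave 47.7% of the Hox FPKM in E12.5 FL, groups 4 to 8 (15 genes) 43.6% and groups 1 to 3 (8 genes) 8.72%. In E16.5 FL the middle groups held the largest share, 49.9% ± 2.71, and in 3w BM the high-numbered groups did, 52.9% ± 1.95. The low-numbered groups 1 to 3 held 8.54% ± 0.6 in Perinatal BM and 15.1% ± 1.94 in 8w BM, and their library ranges, 7.98 to 9.17% and 12.9 to 16.7%, did not overlap. In E12.5 PL, groups 9 to 13 held 50.1% ± 2.71, with Hoxa11, Hoxa13 and posterior Hoxb, Hoxc and Hoxd genes among them.

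Of the 39 members, 20 reached 1 FPKM in at least 3 libraries and were tested with limma on log2(FPKM + 1), with Benjamini-Hochberg adjustment over all 13350 genes tested. Of these, 12 would also have passed without E12.5 PL. The other 8 (Hoxa11, Hoxa13, Hoxb7, Hoxb9, Hoxc6, Hoxd4, Hoxd8 and Hoxd10) passed only through that group, so that a difference from it was built into their selection. In FL and BM their group means were at most 0.229 FPKM. All calls between FL and BM groups came from the 12, so counts out of 20 there understate the share called. The 19 untested members included 4 Hoxb, 8 Hoxc and 6 Hoxd genes, and Hoxc10, Hoxc8, Hoxc9 and Hoxd9 among them had a mean above 1 in E12.5 PL.

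The first comparison set E12.5 FL against E12.5 PL, groups of the same day of development. Hoxa2 to Hoxa9 were higher in FL, and Hoxa10 and Hoxb2 were higher in PL. At an adjusted p under 0.05, 7 members were higher and 10 lower in FL, 17 in all. Over all genes tested 74.2% were called, 33.2% higher and 41.0% lower, so a high count of calls is the background here. Of the 10 lower calls, 8 are the members that passed the filter only through PL, so these calls were fixed by the filter and only the levels of those members are described. The 12 other members gave 7 higher and 2 lower calls, and nothing is read from a count that near the background.

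Hoxa9, a driver of progenitor self-renewal, stood at 5.8, 3.91 and 4.71 FPKM in PL and at 32.5 to 35.9 in FL, 6.07-fold higher on the log2(FPKM + 1) scale (2.60 ± 0.13 (SE), adjusted p = 1.73e-14, limma). Hoxa7, at 1.63, 1.75 and 0.768 in PL, was higher in FL by 2.28 ± 0.14, and Hoxa5, at 4.63, 3.61 and 4.49, by 1.66 ± 0.13. Hoxa6 (0.688, 1.17 and 0.346 in PL) differed by 1.64 ± 0.22, and Hoxa3 (0.751, 0.719 and 0.812) by 1.26 ± 0.19. No FL library of these genes overlapped a PL library. Hoxa2 and Hoxa4 were higher by 0.55 and 0.63, with adjusted p = 0.0203 and 0.0149 (limma). Their calls were lost without certain libraries: Hoxa2 had adjusted p = 0.092 without E12.5 PL replicate 1 and 0.0653 without E12.5 FL replicate 1, and Hoxa4 had 0.0542 without E12.5 FL replicate 2 (limma).

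Hoxa10, the direct neighbour of Hoxa9, went the other way. It stood at 6.12, 7.05 and 7.53 in PL and at 3.07, 4.02 and 3.79 in FL, so FL was lower by 0.77 on the log2 scale (-0.77 ± 0.14 (SE), adjusted p = 3.75e-05, limma). The ratio of Hoxa9 to Hoxa10 was 0.709 ± 0.21 in PL and 9.46 ± 1.12 in FL. Their annotated gene spans lie next to each other (Hoxa9 to position 52231089 and Hoxa10 from 52231197 of chromosome 6), and no exonic bases of Hoxa10 are shared with another gene.

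Hoxa13, the last gene of the cluster and known for roles in distal limb and in vessels of the placenta and umbilicus, was at 7.48, 5.78 and 7.43 FPKM in PL and listed at 0 in all 3 FL libraries. Hoxa11, known in limb and uterus, was at 3.74, 4.19 and 5.2 in PL and also listed at 0 in FL. Exons of Hoxa11 share 35% of their bases with the antisense gene Hoxa11os, which stood at 2.98 ± 1 in PL, and the counting is not stated to use strand, so reads of this pair cannot be told apart. Hoxd8 was at 6.17, 5.23 and 4.43 in PL, and Hoxd4 and Hoxd10 at means of 1.2 and 1.37, all listed at 0 in FL. Because FL is at 0 no fold is given, and because the filter selected these genes by PL no test is given.

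Among Hoxb genes, the 3' gene Hoxb2 (2.69, 1.72 and 2.57 in PL, 0.607 ± 0.134 in FL) was lower in FL (adjusted p = 8.11e-07, limma). The 5' genes Hoxb7 and Hoxb9, selected through PL, had means of 2.3 and 1.42 in PL and 0.0967 and 0.196 in FL. Hoxb4, in contrast, had 2.46, 2.51 and 2.26 in PL and 2.23, 2.98 and 2.14 in FL. Its difference was 0.01 on the log2 scale, with a 95% interval from -0.30 to 0.32. Hoxb3 and Hoxb5 did not pass (adjusted p = 0.137 and 0.065, limma). The only tested Hoxc gene, Hoxc6, was at 1.09, 2.54 and 2.55 in PL and at 0.0329 ± 0.0285 in FL, and it too passed the filter only through PL.

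The PL libraries carried strong markers of other tissues. Summed over the whole list, 8 endothelial markers reached 934 to 1218 FPKM in PL and 73.4 to 80.8 in FL, 8 mesenchyme markers 784 to 2423 and 6.25 to 7.39, and 8 trophoblast markers 2686 to 3101 and 13.7 to 16. Hand1 and Elf5, defining trophoblast factors, were listed at 0 in FL, and all 24 markers were above 0 in every PL library. The 10 HSPC markers summed to 366 to 400 in PL and 793 to 827 in FL, but Procr went the other way, at 148 ± 58.8 and 4.14 ± 0.638. Slamf1 stood at 0.0988 in PL and 1.18 in FL, Hlf at 2.59 and 41.5, and Ptprc, the leukocyte antigen CD45, stood at 7.91 ± 2.78 and 65.3 ± 2.31. The PL libraries differed most in Hoxc. The summed Hoxc level was 3.46, 8.85 and 11.3 in replicates 1, 2 and 3, while summed Hoxd was 11.6, 10 and 9.84. Hoxc10 alone was at 0.734, 1.61 and 3.39. In the same libraries mesenchyme markers summed to 784, 1945 and 2423 and trophoblast markers to 2686, 2731 and 3101. Endothelial markers summed to 1218, 969 and 934, and HSPC markers to 366, 400 and 391. With 3 libraries these lists cannot be told apart. The part of these markers in the PL Hox values was not tested, and in bulk samples fewer cells of a type and less RNA per cell cannot be told apart.

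Between E12.5 FL and E16.5 FL Hoxa2, Hoxa5, Hoxa6, Hoxa9, Hoxa10 and Hoxb2 rose. Of the 20 tested members, 6 rose and 0 fell, beside 34.6% of all genes called, 19.0% up and 15.6% down. All 6 were among the 12 members that also pass without E12.5 PL, and nothing is read from the count. B lineage markers (7 genes) summed to 22.1 to 26.5 FPKM in E12.5 FL and 66.1 to 201 in E16.5 FL, and neutrophil markers (6 genes) to 627 to 715 and 724 to 1524. Their part in the Hox differences was not tested. At an unadjusted p under 0.05 (limma) 6 were higher and 0 lower, and no fall was called under any alternative setting that was run.

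Hoxa5, a regulator of the choice between myeloid and erythroid progenitors, had the largest log2(FPKM + 1) difference, a scale that understates low genes such as Hoxb2. It went from 15.3, 16.1 and 15.3 FPKM to 37.1, 31.8 and 31, a rise of 1.05 ± 0.13 (SE) on the log2 scale (2.07-fold, adjusted p = 2.29e-06, limma). Its neighbour Hoxa6 went from 4.88, 4.57 and 3.58 to 9, 7.36 and 11.1 (0.92 ± 0.22, adjusted p = 0.0029, limma). Hoxa10 rose from a mean of 3.63 to 6.62 (0.72 ± 0.14, adjusted p = 0.000544, limma). Hoxb2 rose from 0.607 to 1.4 (0.58 ± 0.14) and Hoxa2, a hindbrain patterning gene in the embryo, from 1.45 to 2.77 (0.63 ± 0.21). Hoxa9 rose only slightly, from 32.5, 33.5 and 35.9 to 40.4, 43 and 47 (0.35 ± 0.13, adjusted p = 0.0452, limma).

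Hoxa7 lies between Hoxa6 and Hoxa9 but did not pass: it was at 10.2, 11 and 9.92 at E12.5 and at 12.6, 10.9 and 12.7 at E16.5 (0.20, 95% interval -0.09 to 0.49). The 95% intervals of Hoxa5 (0.78 to 1.31) and Hoxa7 do not overlap. The ratio of Hoxa5 to Hoxa7 was 1.47 to 1.54 at E12.5 and 2.43 to 2.95 at E16.5, with no overlap between the libraries. Hoxb4 was level, at 2.45 ± 0.459 and 2.44 ± 0.543 (-0.01, 95% interval -0.32 to 0.30). The call of Hoxa9 was not firm, being lost in 9 of 13 alternative settings with adjusted p from 0.0126 to 0.151 over all 13 (limma), among them leaving out any 1 of the 6 libraries. Hoxa2 lost its call in 4 of 12 settings (adjusted p from 0.00349 to 0.0675, limma), all of them leaving out 1 library, E12.5 FL replicate 2 or 3 or E16.5 FL replicate 1 or 3.

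Because Hoxa5, Hoxa6 and Hoxa7 are neighbours of which the first pair rose and the third did not pass, the 250 bases before their start sites are shown. They are from RefSeq on GRCm38.p6, 5' to 3' on the coding strand, with motif matches in capitals.
Hoxa5 (chr6:52204588-52204837, minus strand): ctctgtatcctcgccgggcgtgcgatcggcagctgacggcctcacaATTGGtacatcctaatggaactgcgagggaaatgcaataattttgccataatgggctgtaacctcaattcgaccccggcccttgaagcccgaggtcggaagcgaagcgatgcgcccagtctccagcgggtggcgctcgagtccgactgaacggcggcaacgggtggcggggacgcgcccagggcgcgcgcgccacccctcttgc
Hoxa6 (chr6:52208673-52208922, minus strand): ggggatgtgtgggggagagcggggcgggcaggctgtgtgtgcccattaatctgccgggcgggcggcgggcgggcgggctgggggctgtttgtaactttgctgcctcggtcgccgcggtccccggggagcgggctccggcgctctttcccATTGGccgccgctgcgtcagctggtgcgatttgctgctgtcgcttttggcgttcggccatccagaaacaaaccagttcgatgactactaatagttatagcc
Hoxa7 (chr6:52218574-52218823, minus strand): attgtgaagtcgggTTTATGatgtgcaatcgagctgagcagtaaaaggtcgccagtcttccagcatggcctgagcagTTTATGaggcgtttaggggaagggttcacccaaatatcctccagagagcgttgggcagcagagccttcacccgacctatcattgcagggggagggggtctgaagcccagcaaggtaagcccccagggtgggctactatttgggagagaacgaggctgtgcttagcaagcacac
Both Hoxa5 and Hoxa6 held a single CCAAT box, read as ATTGG on this strand, at 204 to 200 and 101 to 97 bases before the start. The Hoxa7 window held no CCAAT and a pair of TTTATG matches, the core letters of a CDX site. In GENCODE M21 the spans of Hoxa7 and Hoxa6 reach to 52221854 and 52208722. The Hoxa7 window thus lies inside its GENCODE span, and the Hoxa6 window partly so. Taking the window listed first for each gene, in members and in all genes alike (Hoxa10 and Hoxd11 have a further window, not counted), CCAAT or its reverse complement was present in 13 of 22 Hox promoters matched and in 34.5% of 27025 promoters of this length, and TTTATG or its complement in 5 of 22 and 11.1%. The other motifs searched on both strands were CACGTG (3 of 22, 6.05% of all), TATAAA (3 of 22, 13%), TGACAG (2 of 22, 16%) and TGATTNAT (1 of 22, 2.99%), none of which was in these 3 windows. Hoxa5 held 28 and Hoxa6 24 CpG dinucleotides, Hoxa7 held 7, and the median was 12 over Hox promoters and 6 over all. Among the other genes that rose between the FL days, Hoxa2 held CCAAT matches, and Hoxa9 and the counted window of Hoxa10 held no motif match. The further window of Hoxa10 held CCAAT, and Hoxb2 had no entry. Of tested members without a call there, the windows of Hoxa3, Hoxa11 and Hoxb4 held no CCAAT. Those of Hoxa13, Hoxd4, Hoxd8 and Hoxd10, at or near 0 in FL, held it. These are descriptions of the letters in the windows, and their part in the differences was not tested. Of the 39 members, 17 had no entry in the table.

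**Figure D4:**
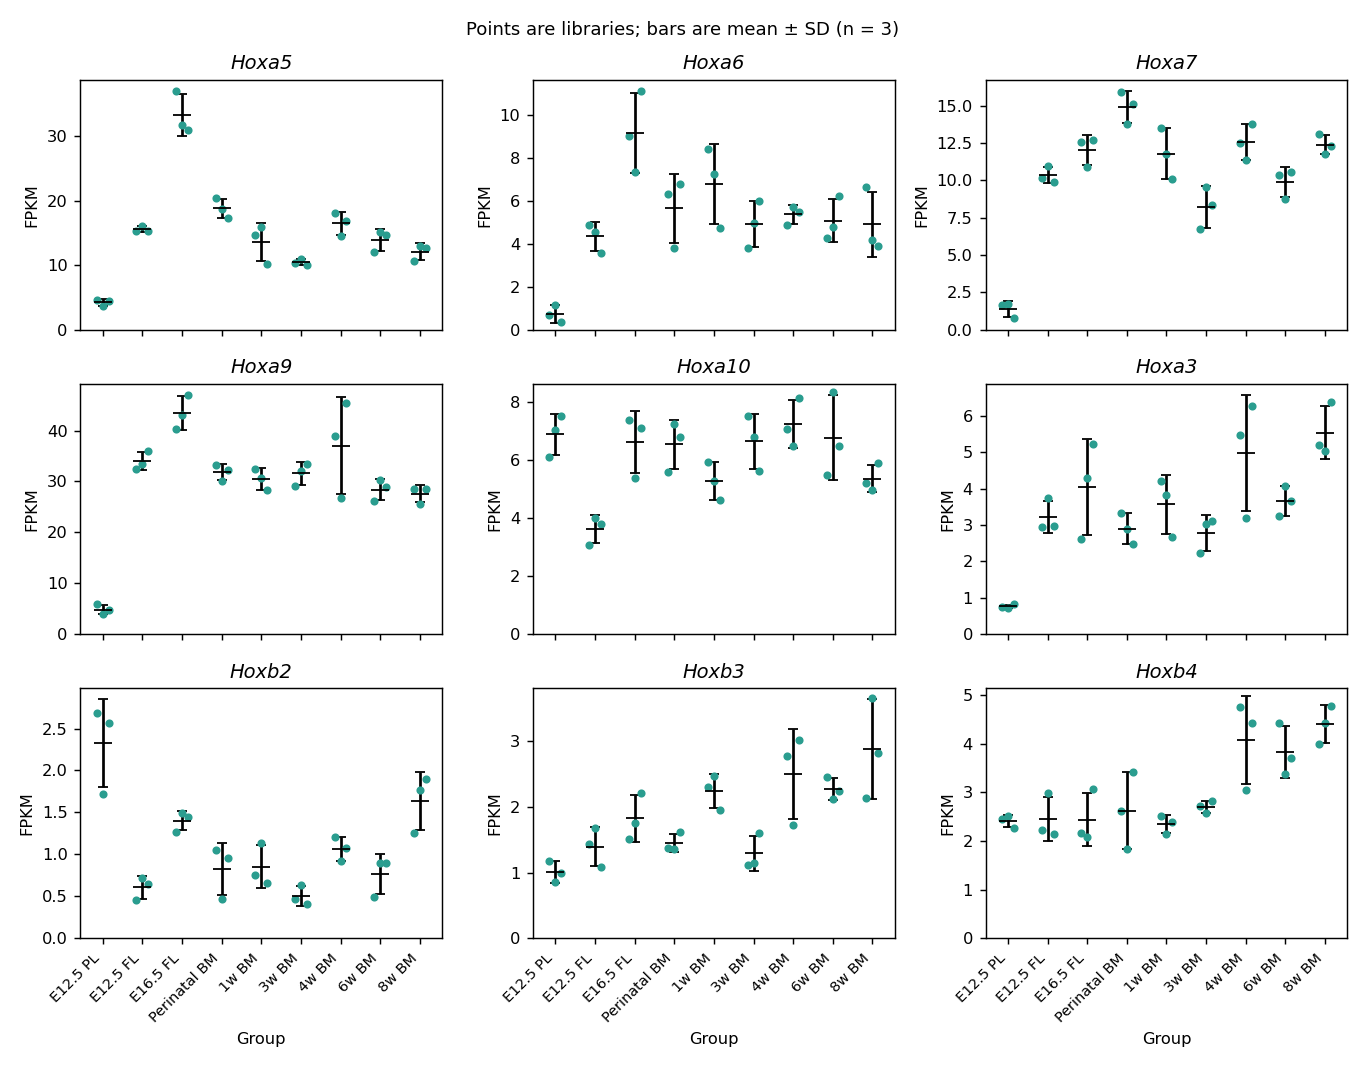
FPKM of Hoxa5, Hoxa6, Hoxa7, Hoxa9, Hoxa10, Hoxa3, Hoxb2, Hoxb3 and Hoxb4 in the 9 groups (points are libraries, bars are mean ± SD, n = 3, each axis from 0). Hoxa5 and Hoxa6 stand out in E16.5 FL, at means of 33.3 and 9.17, and Hoxb4 is highest in 4w, 6w and 8w BM, at 4.07, 3.83 and 4.4.

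From E16.5 FL to Perinatal BM, the first marrow group, Hoxa5, Hoxa6, Hoxa9 and Hoxb2 fell. Of the 20 tested members, 0 rose and 4 fell, beside 28.4% of all genes called, 14.2% in each direction. At an unadjusted p under 0.05 (limma) 0 were higher and 5 lower. All 4 calls were among the 12 members that also pass without E12.5 PL. Nothing is read from these counts or their direction. This comparison and the one before share the E16.5 FL libraries. Hoxa5 fell from 37.1, 31.8 and 31 to 20.4, 18.7 and 17.4 (-0.79 ± 0.13 (SE), adjusted p = 8.67e-05, limma). Hoxa9 fell from 40.4, 43 and 47 to 33.3, 30.1 and 32.2 (-0.43 ± 0.13, adjusted p = 0.0161, limma), Hoxa6 from a mean of 9.17 to 5.65 (-0.63 ± 0.22, adjusted p = 0.0388, limma) and Hoxb2 from 1.4 to 0.824 (-0.41 ± 0.14, adjusted p = 0.0364, limma). No library of Perinatal BM overlapped one of E16.5 FL in any of the 4 genes.

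Hoxa7 and Hoxa10 did not fall with them. Hoxa7 stood at 12.6, 10.9 and 12.7 in E16.5 FL and at 15.9, 13.8 and 15.1 in Perinatal BM, its highest group mean in the series, without passing (0.29, 95% interval -0.01 to 0.58). Hoxa10 was at 6.62 ± 1.08 and 6.55 ± 0.853 (-0.01, 95% interval -0.30 to 0.28).

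The number of falls rests on single libraries. It was 1 without E16.5 FL replicate 3 or without Perinatal BM replicate 2, where Hoxa5 alone passed, and 2 with only the 6 libraries compared, where Hoxa6 (adjusted p = 0.129, limma) and Hoxb2 (0.0989) were lost. Perinatal BM also carried mast cell markers, 6 genes that summed to 2937, 1349 and 3510 FPKM in replicates 1, 2 and 3, against 48.7 to 84.5 in E16.5 FL. All 6 were above 0 in every library of both groups. The 7 B lineage markers summed to 66.1 to 201 in E16.5 FL and 24.9 to 65.8 in Perinatal BM. Their part in the Hox differences was not tested.

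Across the 6 marrow groups, from Perinatal BM to 8w BM, a moderated F test called 6 of 20 tested members (Hoxa3, Hoxa5, Hoxa7, Hoxb2, Hoxb3 and Hoxb4), beside 53.2% of all genes. Hoxa9 was not called (adjusted p = 0.144, limma), with group means from 27.5 to 37.1 FPKM, nor was Hoxa10 (adjusted p = 0.0919, limma), from 5.28 to 7.25, nor Hoxa6 (adjusted p = 0.582, limma), from 4.9 to 6.8. Hoxa5 was highest in Perinatal BM (18.8 ± 1.48) and lowest in 3w BM (10.4, 11 and 10), and stood at 18.1, 14.6 and 16.8 in 4w BM. Hoxa7 was also lowest in 3w BM, at 8.23 ± 1.41, below the 14.9 ± 1.06 of Perinatal BM. Hoxb2 and Hoxb3 had their lowest marrow means in 3w BM as well, 0.505 ± 0.119 and 1.29 ± 0.27, and summed Hox FPKM was 72.5 ± 5.17 there. Without 4w BM replicate 2 the calls were 8, and with any of the 18 BM libraries left out the same 6 genes were among them.

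Libraries of 1 age differed in their Hox level. In 1w BM the summed Hox FPKM was 90, 85.9 and 68.1, and neutrophil markers (6 genes) summed to 2839, 2908 and 4371 in the same libraries. In 4w BM it was 104, 78.7 and 111, and neutrophil markers were 642, 1989 and 671. Hoxa9 in 4w BM was at 38.9, 26.8 and 45.5, the widest spread of any group. In both ages the library with the lowest Hox sum had the highest neutrophil marker sum. That library also had the lowest HSPC marker sum, with 898, 886 and 799 in 1w BM and 1048, 894 and 1077 in 4w BM. These lists cannot be told apart here. Perinatal BM and the oldest BM group also paired their lowest Hox sum with their highest neutrophil sum. E16.5 FL did not, with Hox sums of 120, 115 and 129 and neutrophil sums of 1524, 963 and 724. In the oldest BM group the lowest HSPC sum, 792, lay with the highest Hox sum, 84.3. The part of these cells was not tested.

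From Perinatal BM to 8w BM Hoxa3, Hoxb2, Hoxb3 and Hoxb4 rose and Hoxa5 fell. Of the 20 tested members, 4 rose and 1 fell, beside 37.8% of all genes called, 19.2% up and 18.6% down. All of these calls were among the 12 members that also pass without E12.5 PL, and nothing is read from the count. Mast cell markers summed to 1349 to 3510 FPKM in Perinatal BM and 98.6 to 141 in 8w BM, and 6 macrophage markers to 38.4 to 45.5 and 96.5 to 146. Their part in the Hox differences was not tested. Hoxb4, which expands blood stem cells when overexpressed, went from 2.62, 1.84 and 3.41 to 4, 4.42 and 4.77 FPKM (0.59 ± 0.15 (SE), adjusted p = 0.00325, limma). Hoxb3 went from 1.38, 1.36 and 1.61 to 2.14, 3.66 and 2.82 (0.64 ± 0.15, adjusted p = 0.0017, limma). Hoxa3 went from 3.33, 2.89 and 2.48 to 5.22, 5.03 and 6.4 (0.75 ± 0.19, adjusted p = 0.00361, limma), and Hoxb2 from 1.05, 0.471 and 0.955 to 1.25, 1.77 and 1.9 (0.54 ± 0.14, adjusted p = 0.00508, limma). The libraries of the 2 ages did not overlap in any of these genes. Hoxa5 fell from a mean of 18.8 to 12.1 (-0.60 ± 0.13, adjusted p = 0.000779, limma).

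The rises thus lay in paralogue groups 2 to 4 of Hoxa and Hoxb, but not in all of their genes. Hoxa2 (2.34 to 2.03, 95% interval of the log2 difference -0.57 to 0.29) and Hoxa4 (1.44 to 0.964, -0.77 to 0.16) did not pass. Exons of Hoxb2 and Hoxb3 share 27.3% and 52.9% of their bases with the antisense gene Hoxb3os, and those of Hoxa3 27.1% with antisense and other transcripts, and without strand these reads cannot be told apart. Hoxb4 shares no exonic bases. With only the 6 libraries compared, Hoxb4 and Hoxb2 missed the threshold (adjusted p = 0.0596 and 0.0624, limma), and 3 calls were left.

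Set against E16.5 FL, 8w BM showed both movements at once. Of the 20 tested members, 2 rose and 3 fell, beside 40.2% of all genes called, 20.5% up and 19.7% down. Hoxa5 was lower by 1.39 on the log2 scale (-1.39 ± 0.13, 2.62-fold, adjusted p = 1.4e-08, limma), at 10.6, 13 and 12.7 FPKM against 31 to 37.1. Hoxa6 (-0.80 ± 0.22) and Hoxa9 (-0.64 ± 0.13; 28.5, 25.6 and 28.6 against 40.4 to 47) were lower too. Hoxb4 (0.66 ± 0.15, adjusted p = 0.0012, limma) and Hoxb3 (0.45 ± 0.15, adjusted p = 0.0206, limma) were higher. The ratio of Hoxa5 to Hoxb4 went from 14.2 ± 3.63 in E16.5 FL to 2.75 ± 0.167 in 8w BM. Hoxa7 was at 12.1 ± 1.02 and 12.4 ± 0.65, a difference of 0.04 with a 95% interval from -0.25 to 0.33. The Hoxb3 call was lost in 4 of 12 settings, with only the 6 libraries compared (adjusted p = 0.0972, limma) and without E16.5 FL replicate 1 or 2 or 8w BM replicate 2 (0.0995, 0.0554 and 0.144). The comparisons with 8w BM share its libraries with each other, and those of E16.5 FL or Perinatal BM with the ones above.

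**Figure D5:**
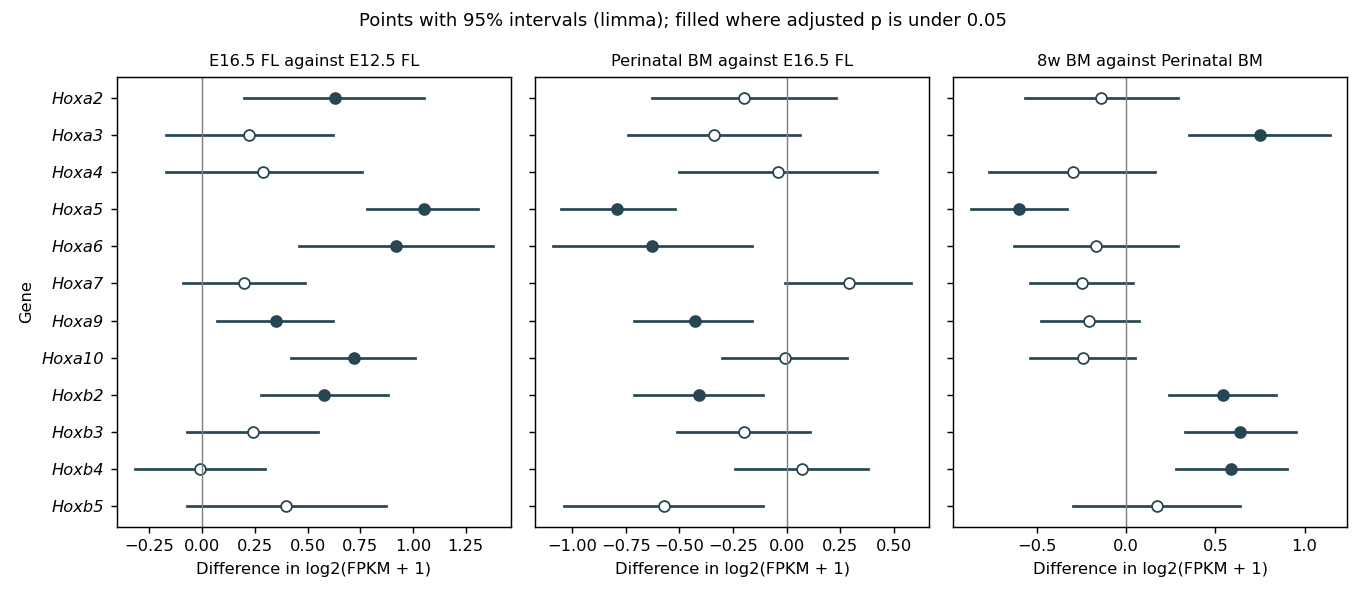
Differences in log2(FPKM + 1) of the 12 tested members that also pass the filter without E12.5 PL, for E16.5 FL against E12.5 FL, Perinatal BM against E16.5 FL and 8w BM against Perinatal BM (points with 95% intervals from limma, filled where the adjusted p is under 0.05). Hoxa5 lies at 1.05, -0.79 and -0.60, while Hoxa3, Hoxb2, Hoxb3 and Hoxb4 lie above 0 in the last comparison.

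TALE cofactors, which bind DNA together with HOX proteins, were followed from a list of 9. Meis1, the partner of HOXA9 in stem cells and leukaemia, stood at 13.9 ± 1.36 FPKM in E12.5 PL and 41.1 ± 2.69 in E12.5 FL (2.82-fold on the log2(FPKM + 1) scale, adjusted p = 2.82e-10, limma), and Meis2 and Meis3 went the other way, from 4.8 and 6.06 in PL to 0.108 and 0.302. Of the 8 tested cofactors 4 were higher and 2 lower in FL, beside 33.2% and 41.0% of all genes. After that Meis1 did not pass between E12.5 and E16.5 FL (adjusted p = 0.299, limma) or into Perinatal BM (0.324), and in 8w BM it was at 55.2 ± 4.82 (0.41 above Perinatal BM, adjusted p = 0.0136, limma). Pbx2, another partner, had means of 62.3 in E12.5 FL, 50.6 in E16.5 FL, 38.5 in Perinatal BM and 22.2 in 8w BM (-1.15 ± 0.06 from E16.5 FL to 8w BM, adjusted p = 1.79e-12, limma), and Pbx3 4.69 in E16.5 FL and 2.24 in 8w BM (-0.80 ± 0.13). Over the list, 2 of 8 rose and 1 fell between the FL days (34.6% of all genes called), 2 rose and 3 fell into Perinatal BM (28.4%), and 3 rose and 3 fell from there to 8w BM (37.8%).

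Of 16 activators of Hox genes, 14 were tested. In E12.5 FL against E12.5 PL 9 were higher and 3 lower, beside 33.2% and 41.0% of all genes, with a median log2 difference of 0.31 beside -0.06 over all genes. Kmt2a, the histone methyltransferase known for keeping Hox genes on in stem cells, was at 6.1 ± 1.95 in PL, 13.2 ± 1.58 in E12.5 FL and 20.4 ± 4.31 in E16.5 FL (0.58 ± 0.17 for the second step, adjusted p = 0.0116, limma). Mllt3, a reader protein of the KMT2A fusion network, rose from 6.22 ± 0.53 in E12.5 FL to 15.6 ± 1.3 in E16.5 FL (2.3-fold, adjusted p = 7.19e-07, limma) and fell to 7.36 ± 0.658 in Perinatal BM (-0.99 ± 0.13, adjusted p = 1.08e-05, limma). Over the list of 14, 4 rose and 2 fell between the FL days (34.6% of all genes called), 0 rose and 5 fell into Perinatal BM (28.4%), and 5 rose and 1 fell from there to 8w BM (37.8%). Cdx2, a caudal activator of posterior Hox genes and a trophoblast factor, was at 18.5 ± 2.79 in PL and at 0.022 in E12.5 FL.

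Of 17 Polycomb genes and H3K27 demethylases, whose products silence Hox genes or oppose that silencing, all were tested, with 5 higher and 9 lower in E12.5 FL than in PL, beside 33.2% and 41.0% of all genes. Ezh2 and Bmi1, catalytic and structural Polycomb subunits, were higher in FL (40.5 to 72.3 and 11.7 to 25), and Cbx7 was lower (22.9 to 3.04). Into Perinatal BM 2 rose and 4 fell (28.4% of all genes called), and in 8w BM 5 were higher and 7 lower than in E16.5 FL (40.2%). From E12.5 to E16.5 FL 9 rose and 0 fell, beside 19.0% up and 15.6% down over all genes, among them the demethylase gene Kdm6b from 24.6 to 67.5 (1.42 ± 0.29, adjusted p = 0.000704, limma).

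Genes beside the clusters and noncoding transcripts within them were followed too. Of 16 neighbours 13 were tested, with 6 higher and 2 lower in E12.5 FL than in PL (74.2% of all genes called) and 5 higher and 3 lower in 8w BM than in Perinatal BM (37.8%). Skap2, an adaptor gene next to the 3' end of Hoxa, stood at 29.4 ± 3.26 FPKM in PL, 65.1 ± 1.83 in E12.5 FL and 73.5 ± 6.19 in 8w BM, and Evx1, next to the 5' end after Hoxa13, at 1.42 ± 0.0905 in PL and listed at 0 in both FL groups. Evx2, beside Hoxd13, was listed at 0 in PL and E12.5 FL. Hoxaas3, antisense to Hoxa3 and Hoxa7, was at 0.673 ± 0.292 in PL and 3.5 ± 0.578 in E12.5 FL (1.43 ± 0.24, adjusted p = 1.48e-05, limma), the same direction as Hoxa3 and Hoxa7. The exons of Hoxa7 share 20.4% of their bases with it, and those of Hoxa3 27.1% with it and other transcripts. Without strand these reads cannot be told apart, so nothing is read from the shared direction. Of 15 noncoding transcripts measured 3 were tested, and no call was made among them in the FL to BM comparisons.

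A list of 12 genes reported as targets of HOXA9 and MEIS1 was higher in E12.5 FL than in PL for 12 of 12, beside 33.2% of all genes, with a median of 2.03 beside -0.06 over all genes. Lmo2, a stem cell transcription factor, was at 24.2 in PL and 176 in FL, Myb at 17.6 and 144, and the growth factor receptor gene Flt3 at 7.02 and 86. These are also genes of blood cells in general, and Cd34 and Flt3 are in the HSPC marker list. Between E16.5 FL and 8w BM 5 rose and 2 fell, beside 40.2% of all genes called, with a median of 0.00: Cdk6, a cell cycle kinase, went from 32.2 to 110 and the survival gene Bcl2 from 7.58 to 32.2, and Mef2c fell from 72.2 to 42.2.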

How the data were processed

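HSPC libraries were made from total RNA with an Illumina TruSeq kit, per the labels. Per the submitters' processing notes, the tools were STAR 2.7, HTSeq 0.6.1p1, FastQC and Trim Galore, on GRCm38. The FPKM were used as the authors deposited them, and no source used here gives the tool, annotation or strand setting behind them. Counts are not given, so the depth is unknown. Relative depth, from the steps between low values, was 0.69 to 1.64 of the median library, and FPKM summed to 519810 to 763033 per library. Within groups, libraries correlated across genes at 0.979 to 0.995, and no columns were identical.

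Values were transformed to log2(FPKM + 1), which understates changes of low genes. Genes with FPKM of at least 1 in 3 libraries were fitted with limma 3.58.1 in R 4.3.3 (9 group means, 27 libraries, 18 residual degrees of freedom, trend), with a threshold of 0.05 on the adjusted p. The calling was also run on simulated data, and that outcome is not given here. Any member could be named; library values were given for members with a mean of at least 5, for discussed paralogue groups and, chosen after their values were seen, for Hoxb2, Hoxb3, Hoxc6 and Hoxc10. The members and lists were chosen with earlier results of these data known. The lists came from general knowledge, and Hoxb3os was not analysed here. Of the members, 1 is not reported by name here, nor is 1 cofactor. Alternatives were another pseudocount, filter, scaling, set of libraries and a replicate block. Python 3.11.15 was used for summaries.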

Additional observations from a re-analysis of the deposited data

How the results depend on the processing

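No gene result reversed, and of 43 gene results 33 kept their side of the threshold in every setting run. The 33 include the 8 calls of E12.5 FL against E12.5 PL that were fixed by the filter, so nothing is read from their stability. Across all 43, the call was lost in 11 of 263 values under other settings and 25 of 330 with a library left out. Counts of called members moved with the filter because fewer or more genes were tested: without a filter 31 members were called at E12.5 (FL against PL), and with a filter at FPKM 5, which left 7 members, 7 were. That filter gave 3 calls for 8w BM against E16.5 FL, 2 for 8w BM against Perinatal BM and 3 among the BM groups. With only the libraries compared, calls were 2 for Perinatal BM against E16.5 FL and 3 for 8w BM against Perinatal BM. The share of all genes called is not given for these settings or with a library left out. The counts therefore describe only how the calls moved. In the main setting that share was 74.2% for E12.5 FL against E12.5 PL, and the 31 and the 7 both include members selected through PL.

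With a library left out, calls ran from 16 to 18 (E12.5 FL against E12.5 PL), 4 to 5 (E16.5 FL against E12.5 FL), 1 to 4 (Perinatal BM against E16.5 FL), 4 to 6 (8w BM against E16.5 FL), 5 to 5 (8w BM against Perinatal BM) and 6 to 8 (BM groups). Median-of-ratios scaling, with factors of 0.984 to 1.012, moved no cluster sum by more than its SD. No pairing of libraries by replicate number was seen, though the labels do not say whether there was one. Residuals of same-numbered libraries correlated from -0.21 to 0.23, 14 of 108 pairs over 0.1, and 8 of 27 libraries were closest to their own number. With a replicate block the counts were 17, 6, 4, 5, 5 and 6 in the order above, as without it. FPKM give no counts, so no limit from depth can be set for members listed at 0.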
